A study of Rattus norvegicus with 21 samples.

Results

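The regions described are CpG-dense stretches of low methylation in the dorsal striatum of the rat, outside long measured runs of such stretches. The autosomal genome of build rn5 was divided into tiles of 250 bp, and 140054 tiles on chromosomes 1 to 20 had at least 2 CpGs in all 21 libraries. A tile was a member when it held 15 or more CpGs listed in any library and its mean level over the 6 unlesioned libraries was from 1% to under 10%. It also had to lie outside any run of 6 or more consecutive tiles under 10%. Members were thus chosen by their measured unlesioned levels, which are given as a description only. The rule gave 10647 members in 7291 runs, of 15295 tiles with 15 or more CpGs. The level of a tile is the percent of reads with C, summed over its CpGs.

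Bisulfite sequencing was done on dorsal striatum of wild-type Sprague Dawley rats aged 120 days, with 6 libraries of Unlesioned/Saline, 8 of Lesioned/Saline and 7 of Lesioned/L-DOPA. The lesion was 6-OHDA (6-hydroxydopamine, toxic to neurons that use catecholamines) in the left medial forebrain bundle, meant to destroy at least 90% of the axons positive for TH (tyrosine hydroxylase). After 3 weeks of recovery came 7 days with a daily injection, of L-DOPA at 6 mg/kg in the L-DOPA group, and the striatum was collected 3 h after the final one. The protocol text describes L-DOPA for all rats, while the group labels name saline for 2 of the 3 groups, and the labels were followed. The sources used here do not say whether unlesioned tissue came from other animals, sham-operated animals or the other hemisphere. They do not name the animal behind each library, so the tests rest on the spread from library to library, which may be technical in part. Dorsal striatum is mixed tissue, and a change in the share of its cell types cannot be told apart from a change within cells.

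Unlesioned replicate 4 stood apart from the other 20 libraries. Its member mean of 2.12% was the highest, the SD over the CpGs of its members was 4.00 points (2.38 to 3.14 in the others), 2.71% of its member tiles read 0% (at most 0.676% in the others) and its median coverage of 37 reads was the lowest (38 to 70 in the others). Applied over the other 5 unlesioned libraries, the rule gave 10723 members, which held 10316 (96.9%) of those described here.

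CpG-dense DNA without methylation is the usual state of CpG islands, which cover the starts of many genes active in most tissues. In adult mammalian tissue most other CpGs are methylated, and methylation falls from the edges of an island to its centre. Bisulfite turns unmethylated cytosine into bases read as T, and a small share of C reads can also come from incomplete conversion.

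Gene names were given to 1245 members (11.7%) whose CpG spacing fitted that of a single RefSeq promoter of the GRCr8 build, for 1185 genes. Of 961 neighbouring matched genes under 1 Mb apart in rn5, 944 (98.2%) were also under 1 Mb apart in GRCr8. A further 164 members fitted more than 1 promoter and were left unnamed, and so were all members away from the promoters in the table. The upstream 250 bases of 4 matched genes follow, from RefSeq (GRCr8), on the gene's strand and 5′ to 3′. Slc6a3 encodes the dopamine transporter, Fosl2 a transcription factor of the Fos family, Emilin3 an extracellular matrix protein, and Cracdl is a protein-coding gene. They are shown because CpGs inside the tetramer CCGG had other levels than the rest, and capitals mark each CCGG. CCGG is its own reverse complement and is the site of the enzyme MspI. It was present in 51.4% of all 33469 promoter sequences of 300 bases and in 100% of those matched by members. Matching needed a CpG-dense tile, whereas the 33469 promoters were not chosen by CpG number. In matched tiles, the median share of CpGs in CCGG was 15.4% in members. It was 15.2% in CpG-dense tiles in runs of 6 or more.

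Slc6a3: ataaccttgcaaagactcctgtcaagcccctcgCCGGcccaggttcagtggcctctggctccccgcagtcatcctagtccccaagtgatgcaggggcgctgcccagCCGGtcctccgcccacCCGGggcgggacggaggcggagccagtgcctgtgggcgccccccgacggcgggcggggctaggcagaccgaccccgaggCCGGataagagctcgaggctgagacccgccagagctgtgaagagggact
Fosl2: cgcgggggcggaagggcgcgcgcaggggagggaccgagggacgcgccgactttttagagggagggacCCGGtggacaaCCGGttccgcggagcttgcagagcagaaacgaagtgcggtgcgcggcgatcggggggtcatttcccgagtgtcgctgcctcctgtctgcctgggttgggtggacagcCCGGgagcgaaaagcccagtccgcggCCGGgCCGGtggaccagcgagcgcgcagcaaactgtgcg
Emilin3: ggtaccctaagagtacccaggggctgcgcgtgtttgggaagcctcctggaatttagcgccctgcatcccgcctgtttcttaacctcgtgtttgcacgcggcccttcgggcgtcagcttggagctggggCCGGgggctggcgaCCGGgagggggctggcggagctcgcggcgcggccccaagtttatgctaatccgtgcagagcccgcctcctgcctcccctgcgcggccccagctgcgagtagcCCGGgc
Cracdl: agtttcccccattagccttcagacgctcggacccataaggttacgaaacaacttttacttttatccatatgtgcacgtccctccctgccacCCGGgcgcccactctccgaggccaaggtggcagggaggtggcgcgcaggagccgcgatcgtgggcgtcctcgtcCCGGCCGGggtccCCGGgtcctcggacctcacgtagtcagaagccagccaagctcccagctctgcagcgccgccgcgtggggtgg

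The name of short islands was checked against the tiles at the ends of the runs, and for most runs the data did not show where the low stretch ended. Of 14582 run ends, 698 (4.79%) lay at a measured tile of 10% or more. The other 13884 ends (95.2%) lay at a tile that was not measured in all 21 libraries. In 6642 of the 7291 runs (91.1%) neither end was measured, in 600 runs 1 end was, and in 49 runs, with 74 members, both were. Long runs of 6 or more tiles that held CpG-dense tiles of the same level had 5.15% of their ends at a measured tile, a share near that of the members. Counting tiles measured in at least 1 library put 1275 members (11.98%) into runs of 6 or more. The members are therefore described by their CpG number and level, and shortness is known for few of them. By run length, 692 members stood alone, 2386 lay in runs of 2 tiles, 3113 in runs of 3, 2703 in runs of 4 and 1753 in runs of 5.

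**Figure D1:**
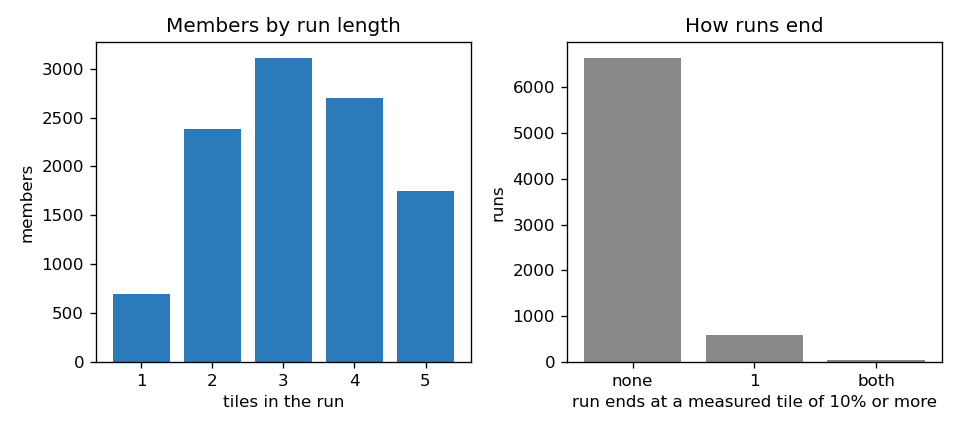
Bars on the left count members by the number of tiles in their run. Bars on the right count runs by how many of their 2 ends lie at a measured tile of 10% or more, and 6642 of 7291 runs have none.

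A measured end is by its definition a rise to 10% or more in the unlesioned libraries, so the levels across it are given as a description. In lesioned saline libraries, the end tile had a median of 3.33% (quartiles 2.13% and 5.68%) and the tile beyond it 15.05% (quartiles 11.6% and 21.8%). Of the 698 tiles beyond an end, 19 were at 50% or more. The 355 members beside such a tile averaged 3.99% over the 15 lesioned libraries, and the 5001 members with a low measured tile on both sides averaged 1.66%. End members were higher by 2.33 points (SD 0.145, n = 15), in 15 of 15 libraries (exact two-sided sign-flip permutation p = 6.1e-05, the smallest that 15 libraries can give). The rule set the adjacent levels from the unlesioned libraries, where end and inner members already averaged 4.00% and 1.71%. The test was made in the other libraries and thus shows only that the difference between these fixed tiles recurs there. With members chosen without unlesioned replicate 4 the difference was 2.34 points.

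The 5 single-tile runs with the highest levels on both sides were chosen for those neighbours and are given as a description. The tile on chromosome 2 at 42469751 to 42470000 held 17 CpGs and stood in lesioned saline between neighbours at 43.9% and 24.6%. Its own level there was 7.58% at the lowest, 9.36% at the median and 10.8% at the highest, all under both neighbours' means. The tile on chromosome 10 at 90172501 to 90172750 held 25 CpGs and lay between 41.6% and 18.1%, with 0.762%, 4.08% and 6.99% as its lowest, median and highest level. The other 3 had neighbours at 14.3% to 25.04%. At 20 reads per CpG, the chromosome 2 tile averaged 7.96% in place of 9.41%. The tile on chromosome 1 at 13509501 to 13509750 was far less stable. Its lesioned saline mean was 5.55%, and 2 other settings of reads per CpG gave 5.50% and 41.98%, so its low level did not hold under each. It had a median of 72789 reads per library, against 2297 for the median member. The cause of this depth was not tested.

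Levels in the members were low in every library and close to the level read over mitochondrial DNA, which is often taken as a gauge of reads that stay C without methylation. Means over the 10647 members were 1.69%, 1.84% and 2.12% (lowest, median, highest) in the 6 unlesioned libraries, whose levels the rule used. They were 1.60%, 1.76% and 2.07% in the 8 lesioned saline libraries and 1.64%, 1.81% and 1.92% in the 7 L-DOPA libraries. The 3 groups overlapped over most of their range. Mitochondrial CpGs read 1.12% to 1.49% over the 21 libraries, and the submitters state a conversion efficiency over 98%. In each library, 31.4% to 52.9% of members lay at or under that library's mitochondrial level. The tiles were read deeply, with a median of 1287 to 3705 reads per member and library, summed over CpGs.

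**Figure D2:**
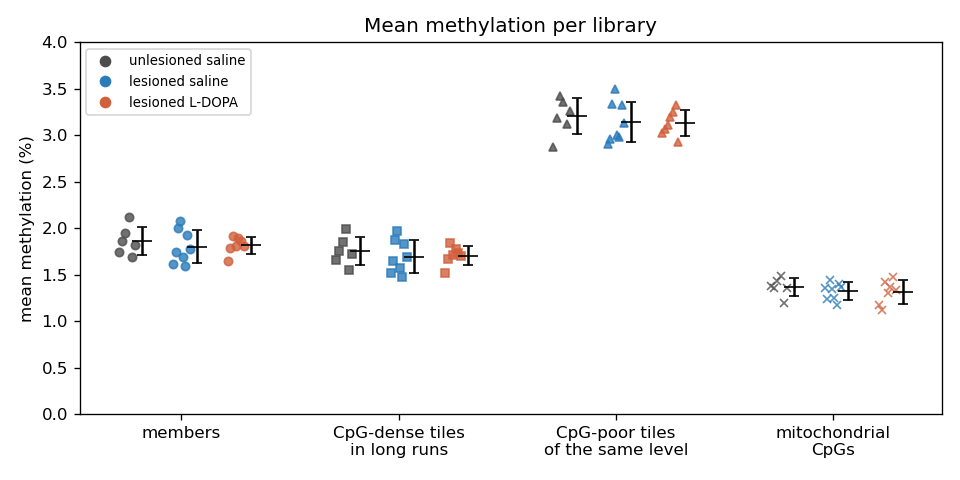
Each point is 1 library, the vertical axis is mean methylation in percent, and bars give mean and SD of a group. Members lie at 1.60% to 2.12%. Their means are slightly above those of CpG-dense tiles in long runs and below those of CpG-poor tiles chosen from the same range of levels.

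Most members sat near the lower limit of the rule, and few were partly methylated. In lesioned saline, 73.1% were at 1% to under 2%, 14.3% at 2% to under 3%, 4.52% at 3% to under 5% and 2.45% at 5% to under 10%. A further 5.46% were under 1% there and 0.103%, or 11 tiles, at 10% or more. The 3 tiles just inside and the 3 just outside the lower limit all round to 1.00% in unlesioned libraries. Just inside the upper limit lay tiles at 9.97% to 9.99% and just outside tiles at 10.01% to 10.07%. Members with more CpGs were lower. Lesioned saline means were 1.96% ± 0.195 (SD, n = 8) for 15 to 19 CpGs, 1.74% ± 0.171 for 20 to 24, 1.58% ± 0.162 for 25 to 29 and 1.47% ± 0.150 for 30 or more.

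Within a member the methylated reads were unevenly spread over CpGs. Of 187384 CpGs listed in all 21 libraries, 57.8% were under 1% in lesioned saline, 18.3% at 1% to under 2%, 14.8% at 2% to under 5%, 8.46% at 5% to under 10% and 0.743% at 10% or more. The median CpG read 0.831%, and the highest CpG of a member had a median of 6.00%. The CpG with the most methylated reads carried a median of 29.9% of a member's methylated reads. Averaged over 50857 CpGs listed on both strands, the strands read alike in each library. The minus-strand mean differed from the plus-strand mean by −0.0204 to 0.0168 points over the 21 libraries. Single CpGs were not compared between strands.

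The sequence around a CpG separated its level in the matched members, where letters could be read. The 2911 CpGs inside CCGG averaged 5.34% ± 0.243 (SD, n = 6) in unlesioned, 5.02% ± 0.334 (n = 8) in lesioned saline and 5.30% ± 0.336 (n = 7) in L-DOPA libraries. The 15940 other CpGs of the same members averaged 0.835% ± 0.170, 0.840% ± 0.158 and 0.768% ± 0.0758. CCGG was higher in 21 of 21 libraries, by a ratio of 4.61 to 8.07. Over the 15 lesioned libraries the difference was 4.35 points (exact two-sided sign-flip permutation p = 6.1e-05), 4.13 within series 1 and 4.67 within series 2. These series are the 2 runs of library numbers in the deposited names. This split was chosen after the levels had been seen. It was present outside the members too. In lesioned saline, CCGG and other CpGs averaged 4.96% ± 0.350 and 0.753% ± 0.178 (n = 8) in the CpG-dense tiles of long runs. In CpG-dense tiles under 1% outside long runs they averaged 4.43% ± 0.394 and 0.622% ± 0.109.

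No other tetramer stood out. The other 15 contexts of 1 base on each side of CG averaged 0.631% (TCGT) to 0.901% (CCGC) in lesioned saline. Of 1396 CpGs at 5% to under 10%, 92.3% were in CCGG, which held 15.4% of all CpGs of these members. Of the 82 CpGs at 10% or more, 47.6% were in CCGG. Without CCGG, 266 of 1234 matched members (21.6%) still averaged 1% or more in the unlesioned libraries, the lower limit of the rule. Over the 1234 members the median level without CCGG was 0.689% in lesioned saline. The mitochondrial levels are read-weighted means with no CpG left out by its sequence, so they are no like measure to set this against. The sources used here do not name a restriction enzyme or any other step at CCGG, and its part in these levels was not tested. Members away from matched promoters could not be split in this way without a genome of rn5.

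**Figure D3:**
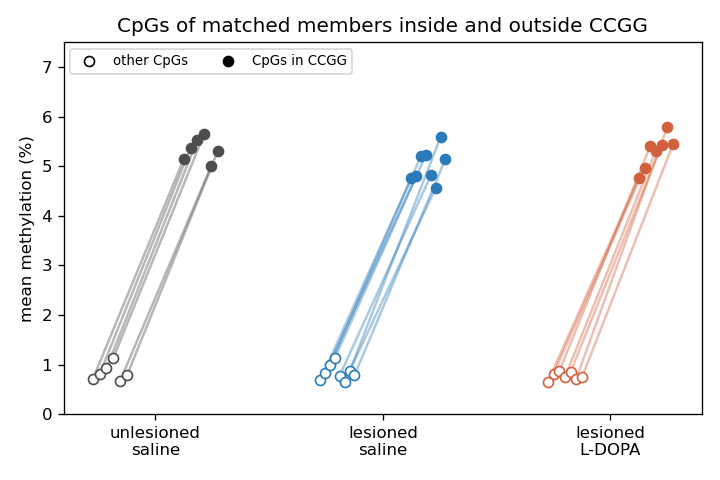
Each line joins the mean methylation in percent of the CpGs outside CCGG (open) and inside CCGG (filled) in the matched members of 1 library. CCGG lies at 4.56% to 5.79% and the other CpGs at 0.652% to 1.13%, with no overlap.

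Along the promoters both levels held at each distance from the start of the gene. CCGG CpGs in lesioned saline averaged 5.07% ± 0.391 at 250 to 151 bases upstream and 4.98% ± 0.345 within 50 bases upstream. Other CpGs averaged 0.953% ± 0.182 and 0.799% ± 0.164 at those distances. Members with more of their CpGs in CCGG were higher. Tiles with under 10% of CpGs in CCGG averaged 1.42% ± 0.190 in lesioned saline and those with 30% to under 40% averaged 2.22% ± 0.242. Outside CCGG the same classes averaged 0.839% ± 0.195 and 1.10% ± 0.246.

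Single promoters show the 2 levels base by base. At Slc6a3 (chromosome 1 at 33787501 to 33787750, upstream of the start), 4 CCGG CpGs read 4.11% to 7.52% in lesioned saline and 12 others 0.202% to 2.06%. The whole tile was at 1.24%, 1.97% and 2.75% (lowest, median, highest) in lesioned saline and 1.20%, 2.02% and 2.65% under L-DOPA, with the groups overlapping throughout. Unlesioned libraries spanned 0.454% to 2.84%. At Fosl2 (chromosome 6 at 35440251 to 35440500, across the start), 4 CCGG CpGs read 3.58% to 5.26% and 19 others at most 1.31%. The tile spanned 0.546% to 1.40% in lesioned saline and 0.522% to 2.33% under L-DOPA. At Mbd3, a subunit of the NuRD chromatin remodeller related to methyl-CpG binding proteins (chromosome 7 at 12349001 to 12349250), the CCGG CpG read 6.25% and 5 others 0.892% to 1.61%. Only these 6 of the 13 Mbd3 CpGs listed in all libraries lie in the promoter sequence, and the highest CpG of the Mbd3 tile, at 9.38%, lies outside it, with its sequence context not known. Slc6a3 was chosen after its values were seen.

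Emilin3 (chromosome 3 at 163133001 to 163133250, upstream of the start) was unlike these, since its highest CpGs in the promoter sequence lay outside CCGG. Its 2 CCGG CpGs read 3.89% and 6.32% in lesioned saline. Its tile was at 7.47%, 8.18% and 12.1% (lowest, median, highest) in lesioned saline and 5.11%, 10.6% and 14.3% under L-DOPA, and the groups overlapped. The 15 CpGs outside CCGG averaged 11.99% ± 2.29 in lesioned saline and the 2 in CCGG 5.11% ± 2.46. From 224 to 141 bases upstream, 7 CpGs read 15.7% to 32.0%, and from 93 to 26 bases upstream 8 CpGs read 1.99% to 9.18%. The level thus fell toward the gene start.

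**Figure D4:**
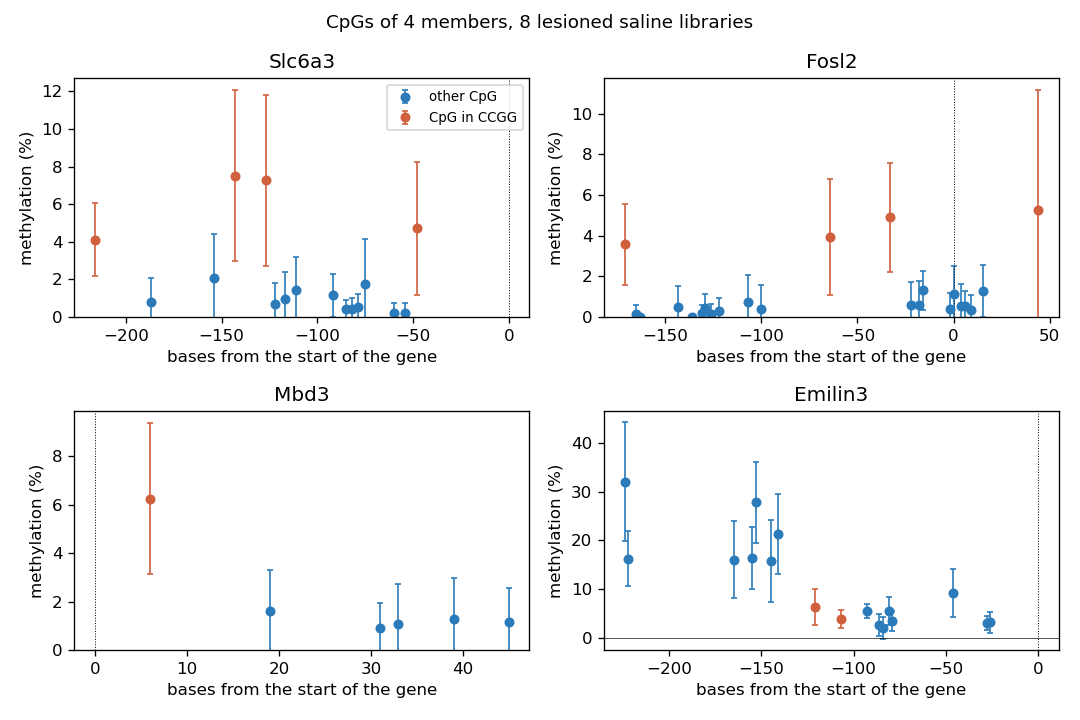
Points are single CpGs by distance in bases from the gene start, with mean methylation in percent and SD over 8 lesioned saline libraries. In Slc6a3, Fosl2 and Mbd3 the CCGG CpGs stand above the others, and in Emilin3 the most distant CpGs are the highest.

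A small number of members held 1 or a few CpGs of high methylation. A CpG at 10% or more occurred in 729 members (6.85%), at 20% or more in 124 and at 50% or more in 23. Raised members were mostly raised over many CpGs. Of 752 members at 3% or more in lesioned saline, 645 (85.8%) had their median CpG at 2% or more. A CpG at 10% or more was held by 420 (55.9%) of them. On chromosome 7 at 80737251 to 80737500, 1 CpG averaged 99.8% in lesioned saline, 98.4% in unlesioned and 99.3% in L-DOPA libraries, while the median of the other 13 was 0.682%. On chromosome 6 at 995251 to 995500, the corresponding values were 99.4%, 99.6% and 100%, and the other CpGs had a median of 1.13%. On chromosome 14 at 108238251, a CpG at 98.97% lay in a tile of 26 CpGs at 3.21%, and the other CpGs had a median of 0.845%. Whether such a position is a CpG in these rats' own sequence was not tested.

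Other members differed between libraries of the same group. The tile on chromosome 15 at 45574251 to 45574500 with 31 CpGs was at 0%, 11.4% and 16.2% (lowest, median, highest) in lesioned saline, 0.831%, 9.38% and 15.8% under L-DOPA and 1.32%, 11.6% and 16.2% in unlesioned libraries. It was at 5% or more in 13 of 21 libraries, drawn from all 3 groups. The tile on chromosome 2 at 1381001 to 1381250 was at 10% or more in 2 libraries, 24.4% in an unlesioned and 27.96% in a lesioned saline one, and at most 3.32% in the other 19. On chromosome 7 at 22618001 to 22618250, 9 libraries were at 5% or more, and lesioned saline spanned 1.40% to 21.8%. The usual member varied far less, with a median SD of 0.539 points over the lesioned saline libraries.

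Members were compared with 2388 CpG-dense tiles of the same range of levels in runs of 6 or more, which differ in the rule only by run length. In the unlesioned libraries, which the choice used, means were 1.86% in members and 1.76% in long-run tiles. The test of levels in the lesioned libraries thus shows only whether that gap recurs. Members were higher by 0.109 points (SD 0.0152, n = 15; means 1.81% and 1.70%), a difference small beside either level but present in 15 of 15 lesioned libraries (exact two-sided sign-flip permutation p = 6.1e-05, adjusted over 6 comparisons 7.3e-05). The SD over the CpGs of a tile was higher by 0.134 points and reads per CpG by 6.26, each in 15 of 15 libraries with the same p. In lesioned saline the 95th percentile was 3.54% in members and 2.88% in long-run tiles. The median tile differed by 0.00159 points (means of the library medians both 1.51%), higher for members in 9 of 15 libraries (exact two-sided sign-flip permutation p = 0.704). With members chosen without unlesioned replicate 4 the mean difference was 0.112 points. In tiles matched to a promoter and outside CCGG, member means were higher by 0.110 points, in 14 of 15 libraries (exact permutation p = 0.000183). Of the long-run tiles, 182 (7.62%) matched a promoter, against 11.7% of members. The 74 members of runs with both ends measured exceeded the long-run tiles by 2.28 points, and all of these were chosen for neighbours of 10% or more at the run's ends.

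CpG-poor tiles of the same range of levels, 26811 tiles of 2 to 14 CpGs outside long runs, were higher than the members. Members averaged 1.81% and these 3.14%, a difference of −1.33 points (SD 0.0949, n = 15; exact two-sided sign-flip permutation p = 6.1e-05, adjusted 7.3e-05). In the unlesioned libraries, which the choice used, the means were already 1.86% and 3.21%. The test of levels thus shows only that this gap recurs in the lesioned libraries. The SD over CpGs differed by −0.389 points, lower in members in 15 of 15 libraries. Members had 11.2 more reads per CpG in 14 of 15 libraries (exact permutation p = 0.000122). The median tile differed by −0.796 points. With CpG-poor tiles of 8 to 14 CpGs alone the mean level difference was −0.656 points.

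L-DOPA against saline after the lesion was the contrast the rule did not use, and no difference in the members passed the test. Mean levels over members were 1.80% ± 0.179 (SD, n = 8) in lesioned saline and 1.82% ± 0.0913 (n = 7) under L-DOPA. The difference was 0.0163 points (SE 0.0722), under the spread between libraries (exact two-sided permutation p = 0.826). Within series 1 it was −0.00177 points and within series 2 −0.00713 points. Unlesioned libraries averaged 1.86% ± 0.155 (n = 6). Lesioned saline differed from them by −0.0598 points (SE 0.0895) and L-DOPA by −0.0434 points (SE 0.0719), given without a test because the rule set the unlesioned level. In matched members, CCGG CpGs were higher under L-DOPA by 0.285 points (SE 0.174, exact permutation p = 0.123), by 0.148 points within series 1 and 0.126 within series 2, and the others differed by −0.0727 points (SE 0.0623, exact permutation p = 0.301).

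Tile by tile, a quasi-binomial model of the methylated and unmethylated reads was fitted to all 180850 testable tiles of the series with Benjamini-Hochberg adjustment. It called 0 tiles (0% of all tested) at an adjusted p under 0.05, and 0 of the 10436 members tested. The other 211 members had a pooled level under 1%. At an unadjusted p under 0.05 there were 558 members (5.35%), against a background of 3.83% of all tiles. Limma on log2 odds also called 0, with 366 members (3.51%) at an unadjusted p under 0.05, against 4.01% of all tiles, so the member share was above the background in the quasi-binomial test and below it with limma. Of the 558, 360 were higher under L-DOPA and 198 lower. Over all tested tiles, 2767 of the 6929 at this p were higher under L-DOPA, or 1.53% of those tested. The median difference was 0.0137 points in members and −0.256 points over all tested tiles. Of all members, 97.8% differed by less than 1 point, 141 were higher by 1 point or more and 94 lower.

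**Figure D5:**
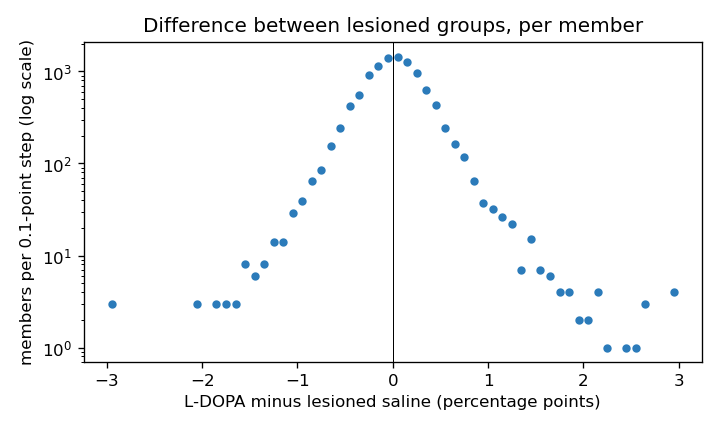
Points count members by the difference between the means of L-DOPA and lesioned saline in percentage points, in steps of 0.1 point on a log scale, with members beyond 3 points placed in the outermost steps. Of 10647 members, 10412 lie within 1 point of 0.

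Named by the smallest p in each direction, these members did not pass. Cracdl (chromosome 9 at 44009751 to 44010000) was at 0.896%, 1.05% and 1.44% (lowest, median, highest) in lesioned saline and 1.38%, 1.77% and 2.32% under L-DOPA, with overlapping groups. The difference was 0.664 points (SE 0.133; quasi-binomial F-test p = 0.000578, adjusted p = 1.00 to 3 digits). Its 4 CCGG CpGs averaged 4.52% ± 0.897 and 6.55% ± 1.32 in these groups and its 20 others 0.367% ± 0.166 and 0.698% ± 0.435. Cpne8, a calcium-dependent membrane binding protein of the copine family (chromosome 7 at 131473001 to 131473250), was at 1.18%, 1.91% and 3.89% in lesioned saline and 0.235%, 1.12% and 1.70% under L-DOPA. The difference was −1.20 points (SE 0.389), at an adjusted p of 1.00.

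The largest of these differences was on chromosome 1 at 249012751 to 249013000. That tile spanned 0.753% to 2.93% in lesioned saline and 2.10% to 6.88% with L-DOPA, and its means differed by 2.61 points (SE 0.654). The other members higher under L-DOPA differed by 0.625, 0.844 and 1.13 points (the last by 0.593 within series 1 and 1.66 within series 2), and the others lower under L-DOPA by −0.557, −0.628, −0.949 and −0.883 points. A single member had groups that did not overlap, against 0.0184% of all tiles measured in the 15 lesioned libraries. It lay on chromosome 4 at 147802251 to 147802500, with 1.03% to 1.48% in lesioned saline and 1.51% to 2.06% with L-DOPA, and its means differed by 0.528 points (quasi-binomial test, adjusted p = 1.00). It was named after its values were seen.

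Genes of 5 lists were looked for among the matched members. Of 22 striatal neuron genes, 12 germline genes and 14 glial genes, 0 had a matched member, of 15, 11 and 9 that were in the promoter table. Of 20 immediate early genes, 1 (Fosl2) had one, and of 17 genes of DNA methylation, 1 (Mbd3). Among the immediate early genes, 4 were matched to another CpG-dense tile. Matched members named 1185 genes from a table of 33469 promoters, so a count of 0 or 1 in so small a list says little. A gene without a matched member may still lie in an unmatched one. Fosl2 differed by 0.280 points (SE 0.296) under L-DOPA and Mbd3 by −0.348 points (SE 0.457), both at an adjusted p of 1.00 in the quasi-binomial test.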

How the data were processed

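DNA from dorsal striatum was treated with bisulfite and read from one end over 50 bp, per the labels' protocols. Per the submitters' processing notes, reads were trimmed with Trim Galore 0.3.7 after FastQC 0.10.1, mapped to build rn5 with Bismark 0.13.0, sorted with SAMtools 0.1.19 and passed to methylKit 0.9.2. De-duplication is stated in the design text, per the labels. The sources used here do not say how fragments were selected. The deposited files hold, per cytosine of a CpG, coverage as a count of reads (10 or more) and the percent of reads with C and with T. Median coverage was 37 to 70 reads, and 36.4% to 58.8% of cytosines had more than 50 reads, so duplicates may remain and the spread between libraries, not counting error, was used throughout.

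CpGs were joined over strands and summed in tiles of 250 bp with Python 3 and numpy. The quasi-binomial model used all 21 libraries in 3 groups, with dispersion moderated as in limma and kept at 1 or above, an F-test, and Benjamini-Hochberg adjustment over all tiles measured in 5 libraries of every group and pooled at 1% to 99%. On simulated data it called 36 of 50 members changed by an odds ratio of 2 and 50 of 50 changed by 4, with 3 unchanged tiles called of 180850. The simulation gave every tile the same dispersion, near the median of 3.31 over all tested tiles. The members' own median was 4.19, so the shares called may be too high for members. Single values were compared with exact permutation tests. Limma was run on log2 odds of the deposited counts as an alternative. The members and lists were chosen with earlier results of these data known.

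Members named per direction were the 5 with the smallest p, and as a description those with the most CpGs, the highest and lowest levels, the largest SD, the highest single CpG and the highest neighbours. Library series 1 holds lesioned saline 1 to 6 and L-DOPA 1 to 3. Series 2 holds all 6 unlesioned libraries, lesioned saline 7 and 8 and L-DOPA 4 to 7. Differences from the unlesioned group over all libraries therefore also hold any difference between the series. In L-DOPA 3 and 7 and unlesioned 1 reads were concentrated in CpG-dense tiles: their median reads per CpG-dense tile were 22.1 to 24.1 times those of tiles of 2 or 3 CpGs, against 10.6 to 18.0 times in the other 18. A search for sequence motifs in all members needs a genome of rn5 and was not run.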

Additional observations from a re-analysis of the deposited data

Results flagged for a closer look

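Of 162 sets of values (8 quantities per library and 46 named tiles, in 3 groups), 18 had 1 value set apart from the rest of the group by Dixon's gap. A rate of 1 in 20, or 8.1 sets, would hold for sets not chosen by their values. Many of the named tiles were picked from these values by level, SD or p, so the count of 18 cannot be judged against that rate. The end tiles of runs averaged 3.61% in unlesioned replicate 1, next to 3.97%, and this library is one of those with concentrated reads.

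Single tiles gave the rest, and most were high values of 1 library in a low tile. On chromosome 2 at 1381001, unlesioned replicate 2 read 24.4% and lesioned saline replicate 3 read 27.96%, against group medians of 2.14% and 2.09%. On chromosome 2 at 148417001, lesioned saline replicate 8 read 27.9%, and on chromosome 3 at 102320001 replicate 6 read 20.5%. On chromosome 7 at 22618001, L-DOPA replicate 5 read 16.4%, next to 5.98%. L-DOPA replicate 1 read 6.07% on chromosome 14 at 17533251, where the group's median was 0%, and 2.12% on chromosome 14 at 87476251. L-DOPA replicate 3 read 2.07% on chromosome 10 at 110055501.

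Unlesioned replicate 4 was set apart by a high value in 3 tiles, with 4.47% on chromosome 5 at 137662251, 5.14% on chromosome 1 at 249012751 and 2.34% on chromosome 9 at 44009751 (Cracdl). Unlesioned replicate 5 read 4.25% on chromosome 20 at 7968501. In lesioned saline, single high values were 2.52% on chromosome 15 at 112296751, 1.75% on chromosome 4 at 246734001 and 1.73% on chromosome 4 at 143671001. Single low values there were 7.37% on chromosome 6 at 995251 and 6.77% on chromosome 5 at 142995251. Unlesioned replicate 4 also had the highest share of member tiles at 0% (2.71%) and the largest SD over the CpGs of a member (4.00 points) of the 21 libraries, and the lowest median coverage, 37 reads. It was the highest of its group in 13 of the 46 named tiles and the lowest in 16.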

How the results depend on the processing

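Under 27 alternatives, of which 15 each left out 1 lesioned library, the per-tile test of L-DOPA against lesioned saline called 0 members. It called 0 tiles of the series except within series 1, where it called 1, which was no member. At an unadjusted p under 0.05, members numbered 558 in the quasi-binomial test and 366 with limma on log2 odds, (5.35% of those tested, against 3.83% of all tiles, and 3.51% against 4.01%), and 366 to 629 over the 12 alternatives that left out no single library. The replicate block called 0 tiles and 0 members. Numbers shared by both lesioned groups did not pair their members' levels (r from −0.0411 to 0.0261, 0 of 7 pairs over 0.1, 0 libraries closest to their own number). With the replicate block, the mean difference of the members was 0.0123 points (exact permutation p = 0.844).

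The mean difference of 0.0163 points had no stable sign. It was −0.00177 within series 1, −0.00713 within series 2, −0.00255 without the libraries with concentrated reads and −0.0727 in matched members outside CCGG, a setting chosen after the data were seen. Leaving out 1 library gave −0.0131 to 0.0552. No setting passed the test (smallest p = 0.123, exact permutation). Within series 2, with 4 against 2 libraries, the design cannot reach the threshold.

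The member share was above that of all tiles under 26 of the 27 alternatives and below it with limma. Most alternatives share most libraries with the main fit, so the 26 are not independent. On the simulated data, 5.24% of unchanged tiles were at an unadjusted p under 0.05 in the quasi-binomial test. The comparison with long-run tiles did not hold for medians: the median tile differed by 0.00159 points (exact permutation p = 0.704) in place of 0.109 for the mean, an alternative chosen after the data were seen. Its other settings gave 0.0766 to 0.218 points, and 2.28 for the members with both run ends measured, which were chosen by high neighbours. The comparisons with CpG-poor tiles (−1.35 to −0.656 points) and of end with inner members (2.25 to 2.63 points) kept their direction. They did so, and passed the test, under every setting run. Both rest on tiles chosen by unlesioned levels, so this shows only that the differences recur in the lesioned libraries. Settings included 20 reads per CpG, pooled counts, each series and a rule applied without unlesioned replicate 4. Under that rule, also chosen after the data were seen, the L-DOPA difference was 0.0166 points. Counting tiles measured in at least 1 library raised the share of run ends at a measured tile from 4.79% to 9.22%.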
